A study of Rattus norvegicus with 8 samples.

Results

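The transcripts of 8 genes of glycolysis and lactate metabolism were followed in the lower spinal cord of rats after a spinal cord injury. They encode aldolase C (Aldoc, ENSRNOG00000011452), triosephosphate isomerase (Tpi1, ENSRNOG00000015290), glyceraldehyde-3-phosphate dehydrogenase (Gapdh, ENSRNOG00000018630), the enolases Eno1 (ENSRNOG00000017895) and Eno2 (ENSRNOG00000013141), pyruvate kinase (Pkm, ENSRNOG00000011329) and the lactate dehydrogenase subunits Ldha (ENSRNOG00000013009) and Ldhb (ENSRNOG00000013000). They were chosen by their Ensembl rat identifiers as known genes of the pathway, not by their values. Earlier results of these data were known at that choice. These genes are 8 of the 32883 genes in the deposited table. Every group was of Sprague Dawley rats, an outbred strain, with a hemisection (a cut through one side of the cord) at T9, sampled 23 days after it, and the sampled cord below the cut is described as intact. Of the 8 libraries, 4 were of trained rats and 4 of untrained rats, with training given after the hemisection. No uninjured group was analysed here, so injury is shared by both groups. The sources used here give neither the kind of training nor the number of animals per library, so p-values measure the spread between these libraries, which may be technical. Within each group the libraries carry numbers from 1 to 4, whose meaning the labels leave unstated.

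Glycolysis splits glucose to pyruvate in the cytosol and yields ATP without oxygen, and lactate dehydrogenase interconverts pyruvate and lactate. In nervous tissue several steps are carried by isozymes with a cell type preference. In the brain and cord Aldoc is mainly an astrocyte aldolase, Eno2 (neuron-specific enolase) the enolase of mature neurons, and Eno1 the enolase found in most cells. Lactate dehydrogenase is a tetramer of A and B subunits, encoded by Ldha and Ldhb, and the A-rich enzyme is known for forming lactate while the B-rich enzyme is known for using it.

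The RefSeq promoter windows, 250 bases before to 50 after the annotated start (build GRCr8, not the build of the counts), are shown for Aldoc, Ldhb and Eno2, the members with enough counts for a test across all genes. They are printed 5′ to 3′ in the direction of transcription. Capitals mark ACGTG or its reverse complement CACGT, 1 form of the core of elements bound by hypoxia-inducible factors. These factors are known regulators of glycolytic genes. Other forms of the core, such as GCGTG, were not searched or marked, so a window without capitals may still hold one. The windows lie at chr10:63715294-63715593 on the plus strand (Aldoc), chr4:177177359-177177658 on the minus strand (Ldhb) and chr4:159267171-159267470 on the minus strand (Eno2).
Aldoc: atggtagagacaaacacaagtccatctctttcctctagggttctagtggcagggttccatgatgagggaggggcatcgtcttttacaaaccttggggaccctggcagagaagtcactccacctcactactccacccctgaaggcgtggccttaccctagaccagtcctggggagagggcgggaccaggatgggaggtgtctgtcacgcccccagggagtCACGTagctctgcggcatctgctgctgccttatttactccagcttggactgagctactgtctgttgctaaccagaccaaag
Ldhb: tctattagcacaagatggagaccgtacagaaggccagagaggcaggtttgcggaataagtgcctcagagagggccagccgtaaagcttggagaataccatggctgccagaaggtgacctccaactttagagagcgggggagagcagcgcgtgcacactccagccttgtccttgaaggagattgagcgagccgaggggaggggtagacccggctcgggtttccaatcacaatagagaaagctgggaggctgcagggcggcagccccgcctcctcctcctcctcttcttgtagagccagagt
Eno2: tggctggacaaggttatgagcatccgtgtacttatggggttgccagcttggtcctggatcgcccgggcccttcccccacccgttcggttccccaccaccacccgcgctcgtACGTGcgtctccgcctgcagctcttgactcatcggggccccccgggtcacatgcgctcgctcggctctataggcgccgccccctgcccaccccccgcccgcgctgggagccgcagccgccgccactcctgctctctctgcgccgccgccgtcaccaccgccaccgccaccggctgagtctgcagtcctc
All 8 members had a window, Eno1 2 of them. The letters stood on either strand in a window of 5 of the 8 members (Gapdh, Eno1, Eno2, Ldha and Aldoc), and in 19.3% of all 33469 windows of 300 bases. A match is a description of the letters and was not tied to any level below.

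Libraries were made by CEL-Seq2, which reads the 3′ end of each captured transcript and counts each molecule once by its unique molecular identifier (UMI). Because 1 transcript gives 1 tag, levels of different genes are compared here as UMIs without division by length. Totals ran from 192472 to 453390 UMIs per library, and levels are given as UMIs or as CPM, UMIs scaled to a common library size. Untrained replicates 1 to 4 held 384167, 365523, 240895 and 453390 UMIs, and trained ones 400934, 216786, 192472 and 212328. Raw UMIs of the 2 groups are therefore not like for like. With no UMI of a gene, its level could still be as high as 6.66 CPM in the deepest library and 18.4 CPM in the shallowest (3 counts, counting error only). This limit does not cover any reads of a gene that could not be assigned to it. The usual markers of neurons, astrocytes and other cell types could not be checked by name, because the reference table at hand paired none of the 32883 identifiers with a symbol. In bulk tissue, fewer cells of a type and less RNA per cell cannot be told apart.

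The UMIs of the 8 members, summed over all libraries, ranged from 0 to 3815. Aldoc held 3815 of the 5013 UMIs of the members, or 76.1%, and ranked 79th of all genes by total UMIs. Ldhb followed with 951 UMIs, Eno2 with 157, Eno1 with 76 and Tpi1 with 13. Ldha had 1 UMI in all 8 libraries together. Gapdh and Pkm, whose enzymes nearly every cell uses, were listed at 0 in each of the 8 libraries. Of all genes in the table, 60.3% were listed at 0 throughout.

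The order of the upper levels was the same in every library. Aldoc lay above Ldhb in 8 of 8 libraries, by 2.91 to 5.07 times, and Ldhb above Eno2 in 8 of 8, by 2.81 to 9.0 times. Eno2 exceeded Eno1 in 6 of 8 libraries, and Eno1 exceeded Eno2 in replicate 1 of both groups, so these neighbours did not keep 1 order. Eno1 was above Tpi1 in 7 of 8 libraries and equal to it in the other. Aldoc made up 67.5% to 80.2% of the members' UMIs in a library, and both the lowest values, 67.5% and 70.2%, belonged to replicate 3.

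The members with the fewest UMIs were those with more than 1 named pseudogene copy. By their symbols, RefSeq (GRCr8) names as pseudogene copies 81 entries for Gapdh, 31 for Eno1, 30 for Ldha, 19 for Pkm and 3 for Tpi1, against 1 for Ldhb and none for Eno2 or Aldoc. The 3 members with at most 1 named copy held 4923 UMIs, of which Aldoc alone had 3815, and the 5 members with more held 90. This split at 1 copy was not among the planned comparisons. Within the 5 the counts did not follow the copies, since Eno1 with 31 copies had 76 UMIs and Tpi1 with 3 had 13. A named copy existed for 7.36% of 23038 protein-coding symbols and for 6 of the 8 members. A read that matches a gene and a copy equally well cannot be assigned to either, and the sources used here do not say how such reads were treated. The counts of Gapdh, Pkm, Ldha, Eno1 and Tpi1 are therefore uncertain as levels. The part that these copies had in the counts was not tested, and 8 genes with this one pattern carry no test.

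**Figure D1:**
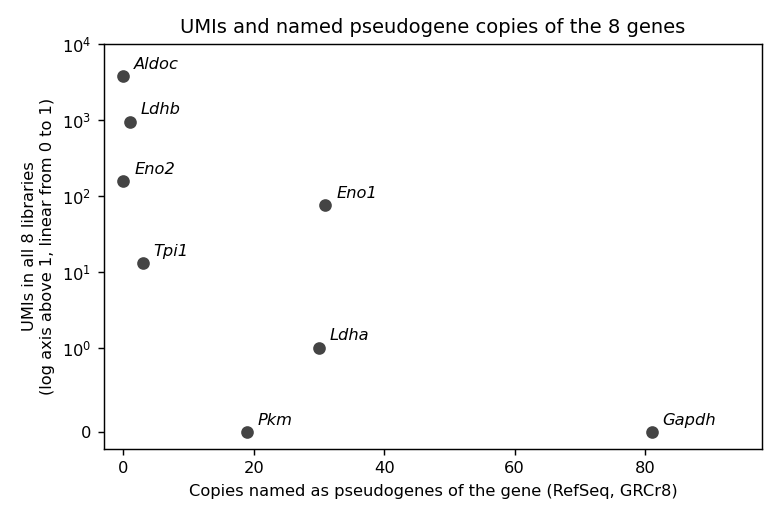
Each point is 1 of the 8 genes, with the number of entries RefSeq (GRCr8) names as its pseudogene copies on the horizontal axis and its UMIs summed over the 8 libraries on the vertical axis (log scale above 1, linear from 0 to 1). Aldoc, Ldhb and Eno2 sit at the upper left with at most 1 copy and at least 157 UMIs, and Gapdh lies at 0 UMIs with 81 copies.

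The comparison of trained with untrained cords asks how training after the injury changed the transcriptome of the cord below it. Of the 8 members, Aldoc, Ldhb and Eno2 passed the filter on low counts, and 0 of these 3 differed between the groups (edgeR quasi-likelihood test, adjusted p = 0.99998 for each). None of the 3 had an unadjusted p under 0.05 in edgeR, DESeq2 or limma-voom. Over all 4086 genes tested, 0 passed (0%), 52 had an unadjusted p under 0.05 in edgeR, 27 in DESeq2 and 57 in limma-voom. The median log2 fold change was -0.03 over the 3 members and 0.01 over all genes tested, and the median absolute one 0.04 against 0.15.

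Aldoc, which cleaves fructose-bisphosphate and is the astrocytic aldolase, stood at 1838, 1784, 1562 and 1374 CPM in untrained replicates 1 to 4. In trained replicates 1 to 4 it stood at 1720, 1703, 1465 and 1528 CPM. All trained values lay within the range of the untrained ones. The group means were 1639 ± 213 CPM untrained and 1604 ± 127 CPM trained (SD, n = 4 each). The difference, as log2 fold change, was -0.03 ± 0.19 (SE; adjusted p = 0.99998 in edgeR), with a 95% interval from -0.43 to 0.37, or 0.743-fold to 1.29-fold. Over all 8 libraries its coefficient of variation was 10.1%, against 4.91% from counting alone. Its highest count, 702 UMIs in untrained replicate 1, would be 9.69% higher if corrected for repeated use of a 6-base UMI, a length the sources used here do not give.

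Ldhb, the subunit of the lactate-using enzyme, stood at 458, 435, 481 and 359.6 CPM in untrained replicates 1 to 4. In trained replicates 1 to 4 it stood at 354, 417, 502 and 301 CPM. The groups overlapped, with replicate 3 the highest and replicate 4 the lowest of trained libraries, and likewise of untrained ones. The means were 434 ± 52.6 CPM untrained and 394 ± 86.6 CPM trained (SD, n = 4 each), and the log2 fold change -0.14 ± 0.21 (SE; adjusted p = 0.99998 in edgeR). Its 95% interval, -0.58 to 0.29, reached from 0.671-fold to 1.22-fold. Trained libraries were lower in 3 of 4 same-numbered pairs.

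Eno2, the neuronal enolase, had 20, 17, 36 and 19 UMIs in untrained replicates 1 to 4, or 52.4, 48.4, 171 and 42.2 CPM. In trained replicates 1 to 4 it had 17, 12, 29 and 7 UMIs, or 42.7, 61.7, 178 and 37.7 CPM. Replicate 3 stood far above the rest in both groups, and the groups overlapped throughout. The means were 78.6 ± 62.0 CPM untrained and 79.9 ± 65.99 CPM trained (SD, n = 4 each). Its log2 fold change of 0.04 ± 0.51 (SE, adjusted p = 0.99998 in edgeR) had a 95% interval from -1.02 to 1.11, 0.493-fold to 2.16-fold, so a 2-fold change in either direction lay inside it. The value followed replicate 3, since it was 0.65 without the untrained and -0.63 without the trained library of that number.

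With the replicate number as a block, which compares same-numbered libraries, 0 of the 3 members differed either (edgeR, 2 of 4086 genes, or 0.0489%, passed). The block left the estimates near 0 and narrowed the intervals. Aldoc had -0.03 (95% interval -0.29 to 0.23), Ldhb -0.17 (-0.44 to 0.11) and Eno2 -0.01 (-0.53 to 0.51) on the log2 fold change scale, with edgeR adjusted p of 0.9995, 0.994 and 0.9995. A 2-fold change lay outside all 3 intervals, each taken for its gene alone. Trained libraries were higher in 1 of 4 pairs for Aldoc, 1 of 4 for Ldhb and 2 of 4 for Eno2.

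**Figure D2:**
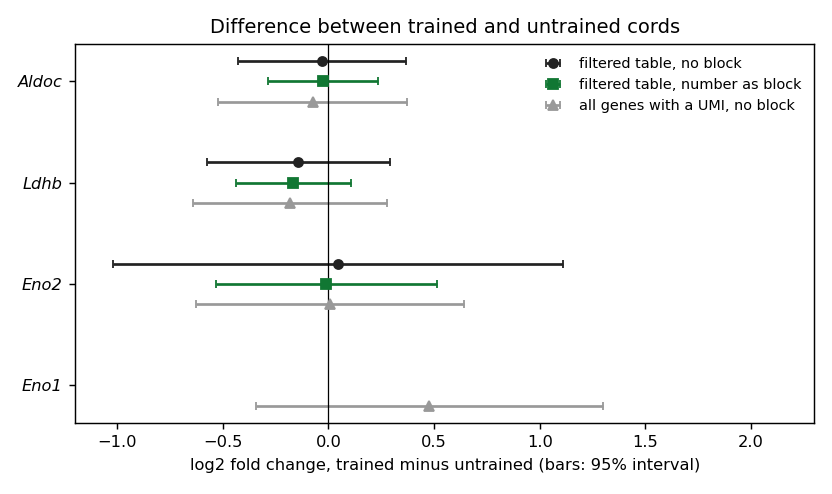
Points are log2 fold changes of trained minus untrained libraries with 95% intervals, for the table after the filter on low counts without and with the replicate number as a block, and for all genes with a UMI. Every interval spans 0, and that of Eno2 without the block, -1.02 to 1.11, is the widest of those drawn. The intervals for all genes with a UMI rest on a spread pooled over genes.

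Eno1, Tpi1 and Ldha could be fitted only without the filter, over the 13048 genes with a UMI, where 0.0460% of genes passed without the block and 0.138% with it. None of them passed in either fit. Both fits rest almost wholly on a spread pooled over genes, and hardly on that of each gene. Eno1, the general enolase, had 37 UMIs in untrained and 39 in trained libraries, with a log2 fold change of 0.48 ± 0.42 (SE, edgeR adjusted p = 0.985). Tpi1, which interconverts the triose phosphates, had 1, 1, 0 and 3 UMIs in untrained replicates 1 to 4 and 2 in each trained one (edgeR adjusted p = 0.985). No library had more than the 3 UMIs taken as the floor, so no fold is given for Tpi1. Ldha had its UMI in untrained replicate 1, and no fold is given for it, nor for Gapdh and Pkm.

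Almost all UMIs of the lactate dehydrogenase genes belonged to Ldhb. Of 952 UMIs of Ldha and Ldhb together, 1 was Ldha, a share of 0.105% (95% Clopper-Pearson interval 0.00266% to 0.584%, counting error only). The share was 1 of 592 in untrained and 0 of 360 in trained libraries, and the Clopper-Pearson interval of the latter reaches 1.02%. The difference of the log2 ratio of Ldha to Ldhb between the groups, 0.37, did not exceed the library spread (p = 0.4 in a two-sided exact permutation test, 0.857 after adjustment over 3 ratios). With Ldha at 0 in 7 libraries, this ratio moves with the pseudocount of 0.5 and the depth of Ldhb, so it gives no measure of subunit balance. Ldha has 30 named copies and Ldhb 1, as given above, and the UMIs do not show how much of either transcript the cord held.

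The ratio of Eno2 to Aldoc, a neuronal against an astrocytic transcript in the same library, was 2.85%, 2.71%, 11.0% and 3.07% in untrained replicates 1 to 4. In trained replicates 1 to 4 it was 2.48%, 3.63%, 12.1% and 2.46%. Replicate 3 was the highest in both groups and the others overlapped. The log2 ratio was -4.61 ± 0.96 untrained and -4.57 ± 1.06 trained (SD, n = 4 each), a difference of 0.03 (p = 0.914 in a two-sided exact permutation test, 0.914 after adjustment). Within same-numbered pairs it was higher in the trained library in 2 of 4 and lower in 2.

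Eno2 against Eno1 gave UMI ratios of 0.769, 5.67, 18.0 and 3.17 in untrained replicates 1 to 4. The trained ratios were 0.607, 3.0, 14.5 and 1.40. All 4 trained libraries lay below the untrained library of their number. The mean log2 ratio was 1.85 ± 1.76 untrained and 1.19 ± 1.81 trained (SD, n = 4 each), a difference of -0.66 that did not exceed the library spread (p = 0.571 in a two-sided exact permutation test, 0.857 after adjustment). Exchanging groups within the 4 pairs gave p = 0.125 (0.375 after adjustment, exact and two-sided), the smallest that 4 pairs can give. Eno1 rests on 2 to 6 UMIs in replicates 2 to 4, and the difference moved widely with single libraries. It was 0.02 without untrained replicate 3 and -0.02 without trained replicate 1, but -1.40 without untrained replicate 1 and -1.45 without trained replicate 3.

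**Figure D3:**
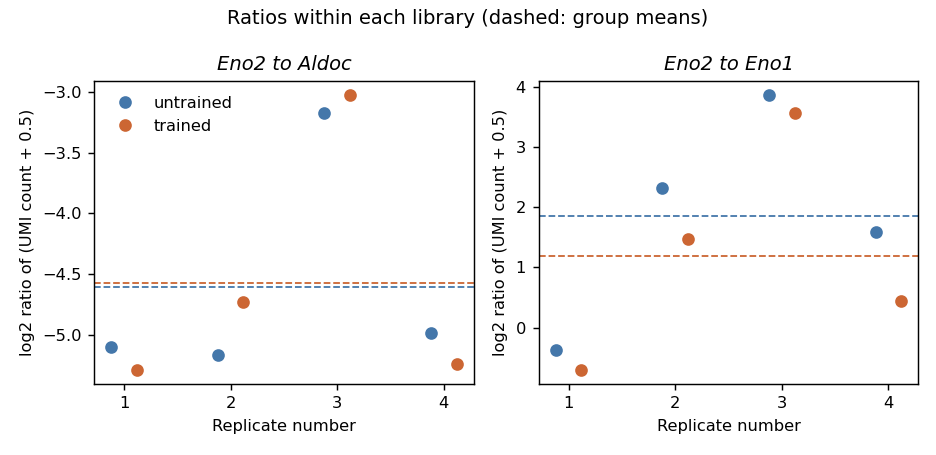
Log2 ratios of UMI counts (with 0.5 added to each count) within each library are plotted against the replicate number, for Eno2 to Aldoc and Eno2 to Eno1, with dashed lines at the group means. Replicate 3 is the highest of both groups in both ratios, and replicate 1 the lowest of both groups in Eno2 to Eno1.

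The enolases varied with the replicate number and not detectably with training. Of the 3 members tested, Eno2 differed over the numbers (edgeR quasi-likelihood test of the number with training in the model, adjusted p = 0.000992), as did 16.0% of the 4086 genes. It did so in limma-voom too (adjusted p = 0.00062, 18.7% of genes). Its mean was 175 CPM in replicate 3, 3.67-fold the mean of the other numbers (39.9 to 55.1 CPM). The untrained and trained libraries of replicate 3 had 36 and 29 UMIs and were each the shallowest of their group, with 240895 and 192472 UMIs in all. Trained replicates 2 and 4, with similar totals of 216786 and 212328 UMIs, had 12 and 7 UMIs of Eno2. The untrained libraries other than replicate 3 were deeper, at 365523 to 453390 UMIs, and whether depth had a part was not tested. The call was kept when any 1 library was left out, at edgeR adjusted p of 7.95e-05 to 0.0109. Among the other 3 numbers Eno2 had an edgeR adjusted p of 0.783, in a refit that left out both libraries numbered 3 because their values had been seen to be high.

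Eno1 showed another pattern, with its high values in replicate 1. It had 26 and 28 UMIs in untrained and trained replicate 1 (exact Poisson 95% intervals 17.0 to 38.1 and 18.6 to 40.5, counting error only) and 2 to 6 UMIs in the other 6 libraries. In CPM these were 68.1 and 70.3 against 8.54 to 26.9. In the fit without a filter Eno1 differed over the numbers (edgeR adjusted p = 6.36e-06, 6.32% of 13048 genes passed), as did Eno2 (edgeR adjusted p = 2.25e-07). The p-values of that fit rest almost wholly on a spread pooled over genes, and hardly on the spread of the gene itself. The F statistic of Eno2 was lower there than after the filter (14.9 against 17.5), although its adjusted p was smaller. The call of Eno1 comes from fits without a filter only. Among numbers 2 to 4 Eno1 had an edgeR adjusted p of 0.975, in a refit that likewise left out both libraries numbered 1 after they had been seen to be high. Eno1 also has 31 named copies, and whether reads of copies entered these counts was not tested.

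Aldoc and Ldhb did not pass this test (edgeR adjusted p = 0.435 and 0.173). Mean CPM of Aldoc was 1779, 1743, 1513 and 1451 for numbers 1 to 4, and that of Ldhb 406, 426, 492 and 330. Whether a number marks a shared day, litter or library batch cannot be told from the labels.

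**Figure D4:**
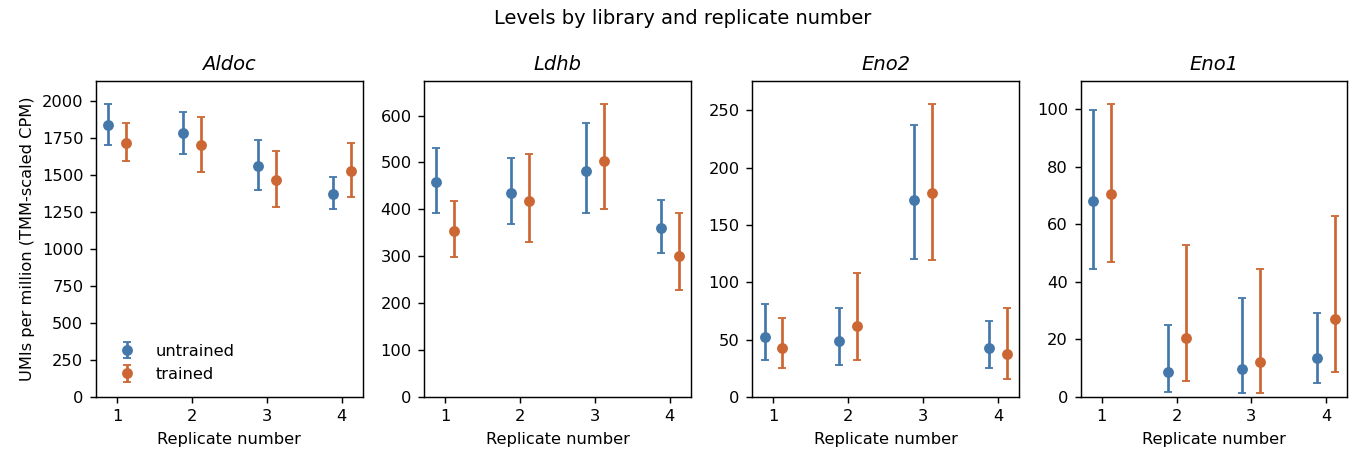
CPM of Aldoc, Ldhb, Eno2 and Eno1 in each library is plotted against the replicate number, with bars for the exact Poisson 95% interval of the count. Eno2 is high in both libraries of replicate 3 and Eno1 in both of replicate 1.

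Aldoc, Ldhb and Eno2 did not share 1 pattern over the 8 libraries. On the log2 CPM scale Pearson's r was 0.78 between Ldhb and Eno2, 0.20 between Aldoc and Ldhb and -0.27 between Aldoc and Eno2. The genes closest to their averaged profile, which is not that of Aldoc, were ENSRNOG00000020451 and ENSRNOG00000027434. Their log2 CPM followed the mean of the standardised log2 CPM of Aldoc, Ldhb and Eno2 with Pearson's r of 0.96 and 0.93, the highest of the other 4083 genes tested. The libraries share their numbers and their scaling, so these values are a description.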

How the data were processed

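The authors deposited 1 table of raw UMI counts per Ensembl gene (32883 genes, 8 CEL-Seq2 libraries). Per the submitters' processing notes, HISAT2 2.0.4, HTSeq 0.6.0 and build Rnor_6.0 were used. The sources used here do not give UMI length or collapsing. Symbols of the 8 members came with the list that defined them, since none of the 32883 identifiers matched the RefSeq table (GRCr8), so further pathway genes and cell type markers were not analysed here.

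Counts were analysed in R 4.3.3 with edgeR 4.0.16 (filterByExpr, minimum count 10, 4086 genes kept; TMM scaling; quasi-likelihood F test; Benjamini-Hochberg adjusted p under 0.05). CPM uses the TMM-scaled sum of the kept genes, and log2 CPM adds a prior count of 2. The number in the titles was tested as a 3-degree term beside training. Same-numbered libraries deviated together from their group means (correlation 0.30 to 0.53 in the 4 pairs, across genes), so fits with the number as a block are given as well. Ratios used a pseudocount of 0.5 and exact permutation over 70 assignments (smallest p 0.0286). DESeq2 1.42.0, limma-voom (limma 3.58.1), other scalings, filters, saturation-corrected counts and leaving out libraries were alternatives. Code was tested on simulated counts. All 8 members were named whatever their values, and the 2 most similar genes by the highest Pearson r. The members, lists and tests were chosen with earlier results of these data known.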

Additional observations from a re-analysis of the deposited data

Results flagged for a closer look

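Of 14 sets of 4 libraries examined, 3 had 1 library far from the other 3, where chance gives about 1 in 20. Eno1 in untrained replicate 1, at 68.1 CPM, stood apart by 0.92 of the range of its group. Eno2 in untrained replicate 3, at 171 CPM, also stood apart by 0.92 of the range. The log2 ratio of Eno2 to Aldoc in the same library, -3.17, stood apart by 0.91 and shares the Eno2 count. The trained libraries of the same numbers were the highest of their group as well, at 70.3 CPM (Eno1), 178 CPM (Eno2) and -3.02 (log2 ratio).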

How the results depend on the processing

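The count of members that differed between trained and untrained cords was 0 under all 17 alternatives. Eno2 could not be tested with at least 20 UMIs in 4 libraries, where it was removed. The log2 fold change of Ldhb was below 0 in all 17 alternatives (-0.28 to -0.04). That of Eno2 changed sign in 6 of 16, at -0.0105 with the replicate block, -0.00652 with the block and saturation-corrected counts, and between -0.63 and 0.65 when 1 library was left out. That of Aldoc changed sign in 3 of 17, between -0.108 and 0.0285 when 1 library was left out. No alternative brought any of them past the threshold, the replicate block included. The count of members that differed over the replicate number was 1. It was 2 without a filter, which lets Eno1 in, in a fit whose spread is pooled over genes. It was 0 without both libraries numbered 3, left out after their high Eno2 values were seen. The group difference of the log2 ratio of Eno2 to Eno1 ran from -1.45 to 0.0158 and that of Eno2 to Aldoc from -0.48 to 0.51 with 1 library left out. That of Ldha to Ldhb kept its sign (0.17 to 0.67). As given above, it moves with the pseudocount and the depth of Ldhb, so the kept sign carries no weight. With the replicate block, exchanges within pairs left these differences as they are, with adjusted p of 0.375 (Eno2 to Eno1), 1 (Eno2 to Aldoc) and 0.9375 (Ldha to Ldhb). The causes of these shifts were not tested. Low counts limit Eno1, Tpi1 and Ldha, and Gapdh and Pkm, at 0 throughout, could not be tested; whether depth or the named copies set these counts was not tested.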

Other observations

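Eno2, Tpi1 and Gapdh lie near each other in the genome and had unlike counts. In RefSeq (GRCr8) Eno2 and Tpi1 are on chromosome 4 with 4 genes between them, and Gapdh is on the same chromosome with 25 genes between it and Tpi1. Their UMIs over all 8 libraries were 157 (Eno2), 13 (Tpi1) and 0 (Gapdh). The counts of Tpi1 and Gapdh are uncertain as levels, as given above, and other neighbouring genes were not compared.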
